A study of Mus musculus with 11 samples.

Results

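The fragment ends described here are those on chromosomes 1 to 19 that were joined to 2 or more different partners within the map of a single cell. They were found by counting, in each of the 10 single-cell maps, the distinct contacts at every chromosome and coordinate, and 5474 of 360931 autosomal ends (1.52%) met this rule. The other autosomal ends each had 1 partner, so the rule sets ends with 2 partners just inside its threshold and ends with 1 partner just outside it. The maps were made by single-cell Hi-C on Th1 cells, a CD4-positive helper T cell type grown from the spleens of male C57BL/6 mice. The spleen cells were stimulated with 1 µg/ml anti-CD3 for 3 days in medium with 5% fetal calf serum, selected on anti-CD4 beads and expanded with 20 ng/ml IL-2, and these steps were the same for every sample. Chromatin of 9 cells, and of the ensemble map of a cell population, was cut with Bgl II, and chromatin of cell 8 was cut with Dpn II, whose recognition site is shorter. The labels name neither separate animals nor separate cultures, so the spread and the p-values below describe these 9 Bgl II cells alone and may be technical. The files hold DNA contacts and no expression, so the labelled cell type was not checked against marker genes.

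In Hi-C, a restriction enzyme cuts crosslinked chromatin and ligase joins ends that lie near each other, so each contact is a pair of fragment ends. A cut makes 2 ends, 1 on each side of the site, and in the single-cell files these lie 1 bp apart. Each physical end can be ligated once. A male cell before DNA replication carries 2 copies of every autosomal end, on the maternal and the paternal homologue, and 1 copy of every X end, and after replication each copy has a sister. The homologues of mouse cells usually lie in separate chromosome territories, while sister chromatids lie side by side. Reads of this kind do not tell the copies apart, and an end with several partners can also come from errors in library preparation, sequencing or mapping. Which of these sources gave the ends described here was not tested. No sequence is printed for these ends, because no mm9 genome was used here.

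Almost every such end had exactly 2 partners. Over the 10 cells, 5446 ends had 2 partners, 28 had 3 and 0 had 4 or more. Among the 9 Bgl II cells, the number of ends with 2 or more partners ran from 293 in cell 10 through a median of 472 to 1071 in cell 1. As a share of autosomal ends this was 1.17% in cell 4 (95% Wilson interval 1.06 to 1.28), 1.46% in the median cell and 1.90% in cell 3 (1.78 to 2.02), with a mean of 1.55% ± 0.254 (SD, n = 9). Contacts that touched such an end made up 4.46% of all contacts in cell 4, 5.58% in the median cell and 7.19% in cell 3. In cell 8, where Dpn II gives many more possible ends, 55 of 23882 ends qualified (0.230%, 0.177 to 0.2996) and none had 3 partners. These counts chose the ends and are given as a description, and the Wilson intervals here and below cover counting error alone. The share was higher in cells with more contacts (Spearman rho = 0.667, Pearson r = 0.744, n = 9 cells). Cell 4, with 19966 contacts, had the lowest share of the 9 cells although 5 of them held fewer contacts. When the 2 sides of a cut site were counted as 1 end, the mean share was 3.10%.

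The 28 ends with 3 partners were spread over the 9 Bgl II cells, from 1 each in cells 1, 7 and 10 to 7 in cell 3, and made up 0.517% of the ends with 2 or more partners. Of these, 4 had no partner on another chromosome, 18 had 1, 5 had 2 and 1 had 3. The last was in cell 1, on chromosome 16 at 3247109 (all coordinates are on mm9), with partners on chromosome 13 at 22620905, chromosome 18 at 19645623 and chromosome 19 at 9605028. In 5 of the 28 ends, 2 of the 3 partners lay within 1 Mb of each other. An example was the end on chromosome 1 at 112604053 in cell 5, joined to 112618766 and 112626117 close by and to 104066953, 8.54 Mb away. Another combined a near partner, a far one and another chromosome: the end on chromosome 13 at 12370345 in cell 9 was joined to 12512735 and 59942493 on its own chromosome, 0.142 and 47.6 Mb away, and to chromosome 11 at 13885392. The 28 ends had between 24 and 318 distinct partners in the ensemble, with a median of 74.5.

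The first comparison asked whether ends with several partners reach other chromosomes more often. Contacts with another chromosome (trans contacts) made up 19.3% ± 8.51 (SD, n = 9) of the partners at these ends and 17.9% ± 6.64 (SD, n = 9) of the partners at ends with 1 partner. The share at ends with several partners ran from 7.19% in cell 1 through a median of 18.6% to 31.0% in cell 3, and it followed each cell's own trans share. It was above the share at ends with 1 partner in 7 of 9 cells, by as much as 6.23 points in cell 3, and below it in cells 6 and 7. Without cell 3 the mean difference was 0.784 points, and with the 2 sides of a cut site counted as 1 end it was 0.101 points. The mean difference of 1.39 points ± 2.44 (SD, n = 9) did not pass the test (exact sign-flip permutation test over cells, two-sided, p = 0.105, adjusted 0.141 by Benjamini-Hochberg over the 8 comparisons tested here). In cell 8 the shares were 32.7% of 110 partners and 22.5%.

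Within chromosomes (cis contacts), distances at ends with several partners were set beside those at ends with 1. Partners under 20 kb from the end made up 13.1% ± 2.22 of all partners against 13.7% ± 1.60 at ends with 1 partner, those 100 kb to 1 Mb away 15.0% ± 3.27 against 15.0% ± 3.31, and those 10 to 50 Mb away 21.3% ± 5.78 against 22.4% ± 4.98 (SD, n = 9 each). Of cis partners, 53.7% ± 6.02 lay over 1 Mb from the end against 53.8% ± 6.18 (SD, n = 9 each). The mean difference was -0.168 points ± 1.83 (SD, n = 9), with 5 cells above and 4 below (exact sign-flip permutation test, two-sided, p = 0.785, adjusted 0.785). This small difference changed sign without cell 4, 5 or 7.

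Pairs of partners were then formed at each end, 1 pair for an end with 2 partners and 3 pairs for an end with 3, which gave 5475 pairs in the 9 Bgl II cells. Both partners were in cis in 3539 pairs (64.6%), 1 was in cis and 1 in trans in 1679 (30.7%), and both were in trans in 257 (4.69%). The mixed kind made up 12.6% of pairs in cell 1, 31.9% in the median cell and 44.0% in cell 3. If the partners of an end were independent draws at the trans share of such ends in the cell, the mixed share would be 29.8% ± 10.5 (SD, n = 9), and 30.3% ± 11.1 was seen. The observed share was above that value in 6 cells and below it in 3, by 0.454 points ± 1.01 on average (SD, n = 9; exact sign-flip permutation test, two-sided, p = 0.207, adjusted 0.237). With the 2 sides of a cut site counted as 1 end, the mixed share was 1.67 points below independence (difference -1.67; adjusted p = 0.0156, exact sign-flip permutation test).

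**Figure D1:**
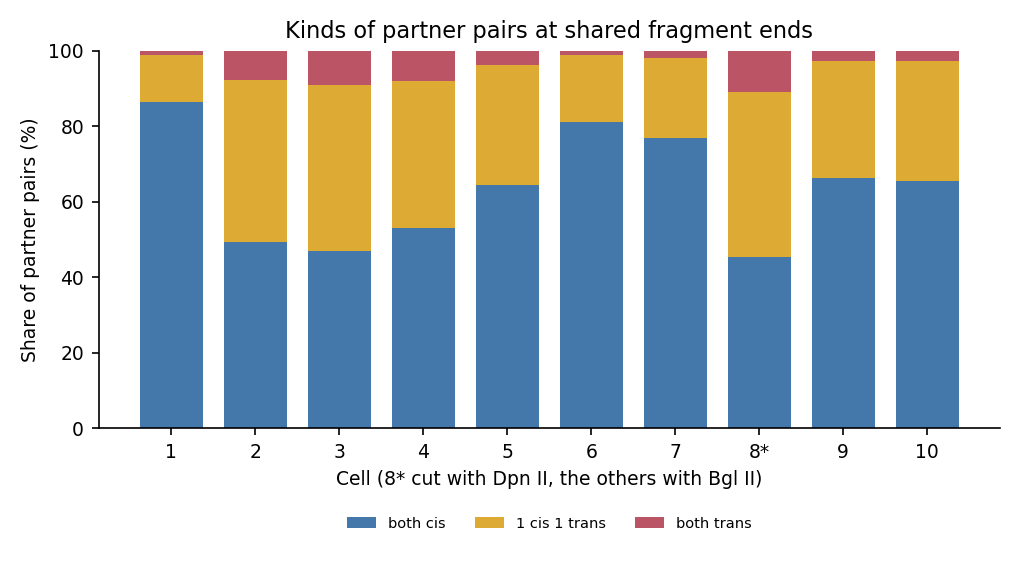
Share of partner pairs (%, vertical axis) that were both cis, 1 cis and 1 trans, or both trans, in each single cell (horizontal axis; cell 8 was cut with Dpn II). The mixed part runs from 12.6% in cell 1 to 44.0% in cell 3, and pairs with both partners in trans are the smallest part in every cell.

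Where both partners were in cis, their distances from the end were compared. The nearer partner lay at a median of 140.5 kb from the end and the farther at a median of 17.7 Mb. In 48.1% of these pairs 1 partner was within 1 Mb and the other beyond, in 21.3% both were within 1 Mb and in 30.6% both were beyond. Per cell the near and far kind made up 48.0% ± 3.10, and 49.2% ± 0.826 (SD, n = 9 each) if the partners were independent draws, with 3 cells above that value and 6 below (not tested). The partners lay on the same side of the end in 51.9% of pairs. They were separated from each other by a median of 14507.7 kb over the 9 cells summed, from a median of 2527 kb in cell 10 to 21527.9 kb in cell 4.

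Distances between partners were next set against exchanged partners. Each cis partner was replaced in turn by the signed distance of every other partner at such ends on the same chromosome of the same cell and in the same distance class, and all exchanges were enumerated with no random draw. Of both-cis pairs, 4.13% ± 1.60 had partners within 20 kb of each other against 3.88% ± 1.45 after exchange, 10.7% ± 3.29 against 9.93% ± 3.05 within 100 kb, 25.0% ± 7.74 against 24.1% ± 6.78 within 1 Mb and 46.0% ± 8.86 against 46.2% ± 9.04 within 10 Mb (SD, n = 9 each). Observed values exceeded exchanged ones in 4, 7, 6 and 4 of 9 cells at these separations, and these were not tested. Because exchange kept the distance class, many pairs keep much of their separation, so likeness within 1 Mb and 10 Mb is partly set by the exchange itself. The mean differences within a cell were 0.249 points ± 0.872 within 20 kb, 0.785 ± 1.11 within 100 kb, 0.817 ± 1.14 within 1 Mb and -0.164 ± 0.861 within 10 Mb (SD of the differences, n = 9).

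**Figure D2:**
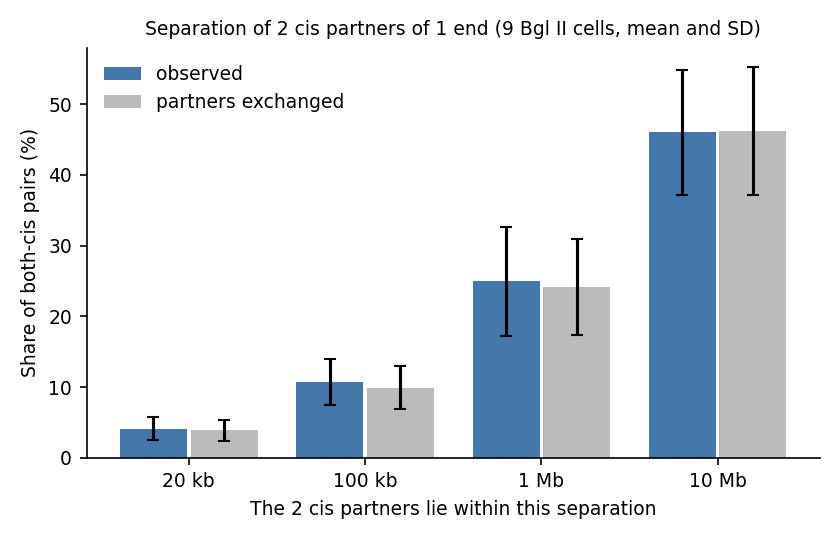
Share of both-cis pairs (%, vertical axis) whose partners lie within 20 kb, 100 kb, 1 Mb or 10 Mb of each other (horizontal axis), as observed and after exchange of partners; bars are means of 9 Bgl II cells and error bars the SD. The bars differ by under 1 point at each separation. The error bars show the spread between cells and not the spread of the differences within a cell.

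Pairs with partners close together were few. Within 20 kb of each other lay 125 of 5475 pairs (2.28%), all of them in cis, and in 110 of the 125 both partners were also within 100 kb of the end. In 9 pairs the partners were the 2 sides of 1 cut site, and in 8 of those this site lay within 20 kb of the end. The other was in cell 1, where the end on chromosome 7 at 118182461 was joined to 117900054 and 117900055, 282 kb away. Of the 125 pairs, 4 had a partner over 1 Mb from the end, and these are named after their values were seen. The end on chromosome 5 at 92641641 in cell 1 was joined to 106771222 and 106771284, which lie 62 bp apart. The end on chromosome 10 at 89530012 in cell 9 was joined to 7159755 and 7160019, which lie 264 bp apart and 82370.3 kb from the end. The others were on chromosome 5 at 139617609 in cell 5 and on chromosome 2 at 108148694 in cell 10, with partners 12331 and 19560 bp apart. No end's partners were themselves joined by a contact (0 of 5475 pairs), and no 2 ends shared the same pair of partners. These counts are given without a comparison rate.

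Nearness was tested on long-range partners alone, that is partners in trans or over 1 Mb away in cis, because partners near their end are near each other too. The exchange here was again between ends on the same chromosome of the same cell. Trans partners were exchanged by position, and cis partners over 1 Mb away by signed distance, as 1 class. Distance in cis was therefore not matched further, and an exchanged cis partner did not keep its position. The part of this in the difference below was not tested. Of 2294 long-range pairs that allowed an exchange, 44 had partners within 1 Mb of each other. The share was 1.17% in cell 3, 2.38% in the median cell and 4.65% in cell 10, and after exchange it was 0.762% in cell 2, 1.09% in the median cell and 2.07% in cell 1. Partners of 1 end were thus close slightly more often than exchanged ones in 9 of 9 cells, 2.33% ± 1.15 against 1.27% ± 0.450, a mean difference of 1.07 points ± 1.13 (SD, n = 9; exact sign-flip permutation test, two-sided, p = 0.00391, the smallest that 9 cells allow, adjusted 0.0104). The difference ran from 0.132 points in cell 6 to 3.56 in cell 10 and rests on 3 to 10 close pairs per cell. It was 6.45 points (7.95% of pairs close as observed) with the 2 sides of a cut site counted as 1 end, which adds opposite-side pairs. The difference passed with a radius of 100 kb (0.736% against 0.137%, 8 of 9 cells above, adjusted p = 0.0208, exact sign-flip permutation test). With a radius of 500 kb it passed too (1.60% against 0.656%, 9 of 9 cells above, adjusted p = 0.0104, exact sign-flip permutation test). It did not pass with a radius of 2 Mb (1.07 points, adjusted p = 0.109) or 5 Mb (0.811 points, adjusted p = 0.141; exact sign-flip permutation tests).

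The same long-range pairs were then set against pairs of partners that belonged to different ends 1 to 50 kb apart. At neighbouring ends the partners lay within 1 Mb of each other in 2.79% of pairs in cell 9, 7.15% in the median cell and 11.1% in cell 1 (9513 of 122183 pairs summed). At 1 shared end this was 1.17% in cell 3, 2.38% in the median cell and 4.60% in cell 10 (44 of 2296). The shared end was below the neighbouring ends in 9 of 9 cells, with a difference of -8.74 points in cell 1 and -0.348 points in cell 9 (mean difference -4.42 points ± 2.75, SD, n = 9; exact sign-flip permutation test, two-sided, p = 0.00391, adjusted 0.0104). The partners of 1 end therefore lay together less often than the partners of different ends up to 50 kb apart. Against ends 50 to 200 kb apart, where 4.11% ± 1.04 of pairs were close (SD, n = 9), the difference was smaller, at -1.78 points with 1 of 9 cells above (adjusted p = 0.0312, exact sign-flip permutation test).

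The contrast was larger with the opposite sides of 1 cut site, a comparison added after the data were seen. These sides lie 1 bp apart, and their partners were close in 350 of 2397 pairs, from 6.85% in cell 9 through a median of 13.6% to 24.6% in cell 10. The shared end was lower by 11.9 points on average (difference -11.9; adjusted p = 0.0104, exact sign-flip permutation test). Against ends 1 to 50 kb from the ends with several partners themselves, where 6.28% ± 2.29 of pairs were close (SD, n = 9), the difference was -3.96 points (adjusted p = 0.0208, exact sign-flip permutation test) with 1 of 9 cells above. When the 2 sides of a cut site were counted as 1 end, opposite-side pairs entered the shared-end pairs by construction, and the difference turned to 1.31 points above neighbouring ends (adjusted p = 0.102, exact sign-flip permutation test).

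**Figure D3:**
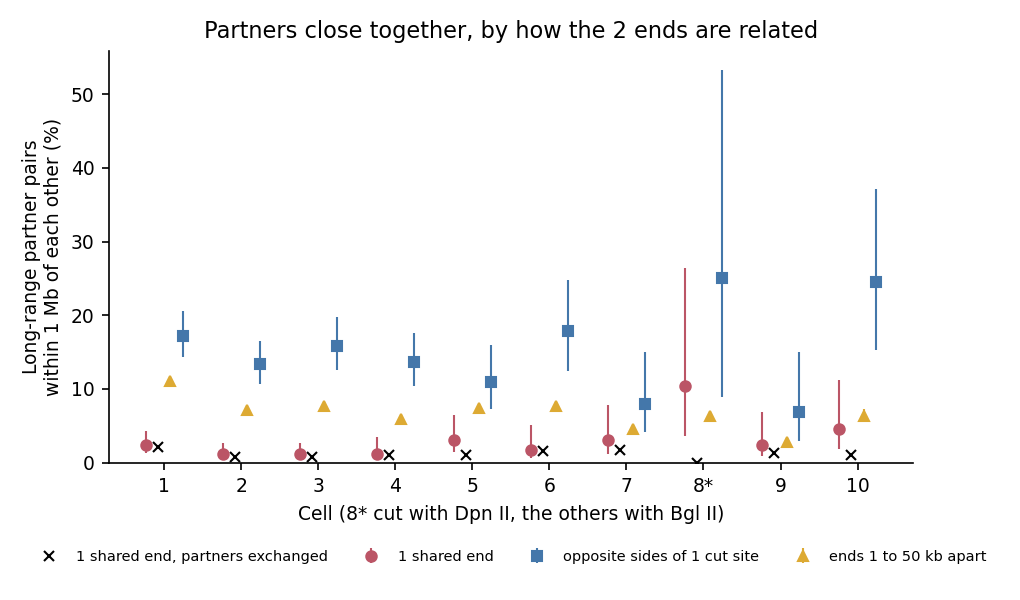
Share of long-range partner pairs within 1 Mb of each other (%, vertical axis) in each cell (horizontal axis), for partners of 1 shared end (circles), the same after exchange (crosses), partners of ends 1 to 50 kb apart (triangles) and partners of the opposite sides of 1 cut site (squares); lines are 95% Wilson intervals. In the 9 Bgl II cells the circles lie below the triangles and squares, and above the crosses.

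Long-range pairs were also taken by kind, since a pair of 1 cis and 1 trans partner cannot be close. Such pairs made up 956 (41.6%) of the pairs at a shared end and 38477 (31.5%) of those at neighbouring ends, so their larger part lowers the overall share at a shared end. Among pairs with both partners in trans, 20 of 257 (7.78%) reached the same chromosome and 3 (1.17%) lay within 1 Mb, against 4727 (31.7%) and 1678 (11.3%) of 14902 pairs at neighbouring ends. Per cell, the observed share on the same chromosome ran from 0% in cell 1 to 12.5% in cell 10. After exchange of trans partners it ran from 5.56% in cell 9 to 13.7% in cell 1 (not tested). Among pairs with both partners over 1 Mb away in cis, 41 of 1083 (3.79%) were within 1 Mb against 7835 of 68804 (11.4%). The share at a shared end was lower in 9 of 9 cells for trans pairs, 6 of them with no close pair among 22 or fewer, and in 8 of 9 for cis pairs. In cell 9 it was higher for cis pairs, 5.17% (3 of 58) against 4.24%. These sums over cells weight cells with more contacts more heavily and were not tested apart.

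The 3 trans pairs within 1 Mb were in 3 cells. In cell 4 the end on chromosome 3 at 9806130 was joined to chromosome 17 at 15158066 and 15189364, 31.3 kb apart. In cell 2 the end on chromosome 14 at 69908648 was joined to chromosome 15 at 89218706 and 89315804, 97.1 kb apart. In cell 3 the end on chromosome 5 at 9471195 was joined to chromosome 4 at 146045957 and 146903213, 857 kb apart. The next closest trans pair was separated by 10597.7 kb, so that no trans pair lay between 1 and 10 Mb. Among pairs with both partners over 10 Mb away in cis and over 20 kb apart, the closest was in cell 2, where chromosome 8 at 76227195 was joined to 65265540 and 65298386, 32.8 kb apart and both over 10 Mb away. Another of the 5 closest such pairs was in cell 5, where chromosome 2 at 42741921 was joined to 94535077 and 94697551, 162 kb apart and 51.8 to 52.0 Mb away.

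Cell 8 differed from the Bgl II cells in this measure, on few pairs. Of its 29 long-range pairs, 3 (10.3%) had partners within 1 Mb, all 3 among 8 cis pairs, against 6.31% of 6086 pairs at neighbouring ends. In this cell the shared end was thus above the neighbours, on a count of 3. No enumerated exchange among its 21 exchangeable pairs gave close partners (0%), and 9.52% of them were close as observed.

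Compartments are the 2 classes of megabase-scale chromatin, broadly open and broadly closed, whose regions prefer contacts with their own class. Here they were called from the ensemble in bins of 1 Mb, with class 1 the one holding more fragment ends per bin (910 of 2369 bins, 38.4%). The 2 long-range partners of an end fell in the same class in 57.0% of pairs in cell 10, 59.9% in the median cell and 67.5% in cell 7, against 50.2% to 54.7% after exchange. The observed share was higher in 9 of 9 cells, 60.8% ± 3.91 against 53.2% ± 1.38, by 7.52 points ± 3.33 (SD, n = 9; exact sign-flip permutation test, two-sided, p = 0.00391, adjusted 0.0104). When partners were exchanged only between ends of 1 class, an alternative added after the data were seen, the difference was 5.76 points (adjusted p = 0.0104, exact sign-flip permutation test). In cis, both exchanges moved the signed distance and not the partner's position. An exchanged cis partner therefore did not keep the preference for the end's own class that is given below. That preference can raise the observed share above the exchanged one, and its part in both differences was not tested. In cell 8 the shares were 61.1% and 40.5% over 18 pairs.

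**Figure D4:**
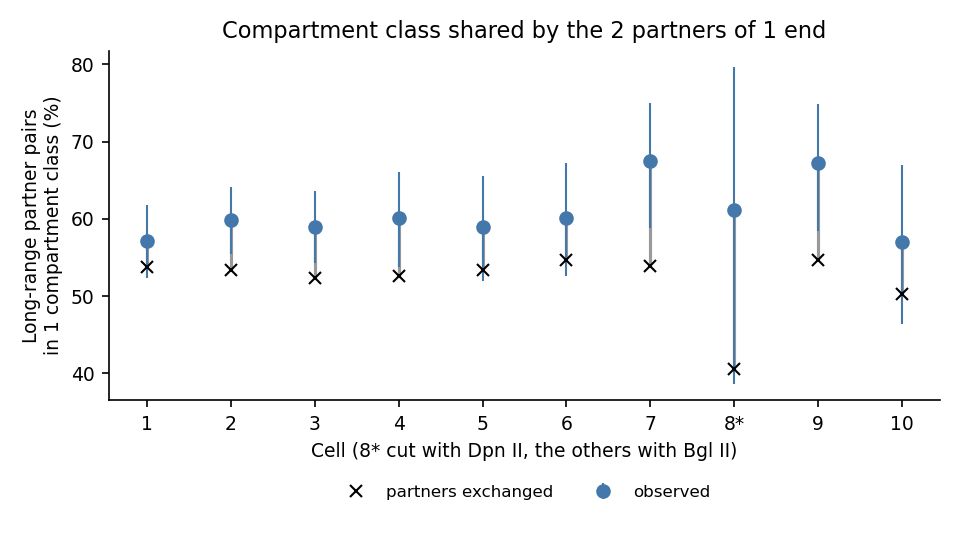
Share of long-range partner pairs that fall in 1 compartment class (%, vertical axis, starting above 0) in each cell (horizontal axis), as observed (circles, with 95% Wilson intervals) and after exchange (crosses). The circles lie above the crosses in every cell. Among the Bgl II cells the gap runs from 3.35 points in cell 1 to 13.5 points in cell 7. In cell 8 it is 20.6 points, on 18 pairs.

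The class of the end itself was also tested. Of ends with several partners, 44.2% ± 3.04 lay in class 1 against 42.5% ± 1.55 of ends with 1 partner, higher in 6 of 9 cells, and the difference of 1.72 points ± 2.37 (SD, n = 9) did not pass (exact sign-flip permutation test, two-sided, p = 0.0742, adjusted 0.119). Trans partners fell in the end's own class in 64.1% ± 3.78 of cases at ends with several partners and 65.1% ± 3.87 at ends with 1, and cis partners over 1 Mb away in 68.6% ± 2.75 and 69.8% ± 3.02 (SD, n = 9 each). Ends of class 1 had both long-range partners in class 1 in 34.3% of 877 pairs, 1 in each class in 45.0% and both in class 2 in 20.6%. Ends of class 2 had both partners in class 2 in 54.4% of 1400 pairs, 1 in each in 36.9% and both in class 1 in 8.71%.

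Ends with several partners in a cell had slightly more partners in the ensemble, which counts distinct contacts of a cell population. The median number of ensemble partners was 6.28 ± 0.07 on the log2 scale at such ends and 6.22 ± 0.03 at ends with 1 partner, higher in 7 cells and lower in 1 (difference 0.05 ± 0.05, SD, n = 9; exact sign-flip permutation test, two-sided, p = 0.0156, adjusted 0.0312). The call was lost when ends with 3 partners were left out (adjusted p = 0.0547, exact sign-flip permutation test) and without any 1 of cells 2, 3, 4, 5, 6, 7 and 10 (adjusted p = 0.0625 each, exact sign-flip permutation test). With the mean of log2 in place of the median, the difference was 0.0420 ± 0.0203 (SD, n = 9), above in 9 of 9 cells (adjusted p = 0.00781, exact sign-flip permutation test). In the pooled single-cell map, after removal of contacts found in the 9 cells, such ends had a mean of 5.64 ± 0.362 partners against 4.89 ± 0.173 (SD, n = 9), and more in 9 of 9 cells. The part of this difference in the results above was not tested.

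The partners of these ends were checked for links to one another. Of 2252 long-range pairs with partners over 1 Mb apart, 5 had another contact of the cell joining the regions within 100 kb of each partner. Of these, 4 were in cell 1, the cell with the most contacts (30665), and 1 in cell 5. No comparison rate is given for this count, so it is a description. A partner was itself an end with several partners in 3.20% ± 1.12 of cases, against 3.04% ± 0.483 for the partners of ends with 1 partner (SD, n = 9). The opposite side of the cut site was also seen at 3.78% ± 0.961 of ends with several partners and 3.14% ± 1.12 of ends with 1. Within 100 kb of such ends, 1.68% ± 0.545 of the other ends had several partners too, against 1.68% ± 0.234 around ends with 1 (SD, n = 9 each; none of these was tested).

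Few of these ends recurred. The 5419 ends in the 9 Bgl II cells stood at 5395 distinct positions, and 22 of those (0.408%) had several partners in 2 or more cells. Of all 284228 distinct autosomal ends seen in these cells, only 47004 were seen in 2 or more cells, with any number of partners. Over the 36 pairs of cells, an end seen in both cells had several partners in a given cell in 1.75% of cases, and where it had several in 1 cell it had several in the other in 2.60%. The most recurrent position was chromosome 18 at 82397034, with several partners in cells 2, 4, 5 and 9 and 318 partners in the ensemble. Its partners differed in each cell. In cell 2 they were 0.00122 and 33.7 Mb away in cis, in cell 5 0.00648 and 0.0400 Mb away, in cell 9 on chromosomes 2 and X, and in cell 4 it had 3, on chromosomes 2 and 6 and 3.00 Mb away in cis. The next 4 positions by the tie rule had several partners in 2 cells each, among them chromosome 4 at 134180806, whose 4 partners in cells 1 and 7 all lay in cis within 1.10 Mb, and chromosome 2 at 49808642, with 3 of its 4 partners in cells 4 and 10 in trans.

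By chromosome, the share of ends with several partners was highest on chromosome 15 and lowest, among autosomes, on chromosome 7. On chromosome 15 it was 271 of 15017 ends over the 9 cells (1.80%, 1.60 to 2.03) and from 0.964% to 2.20% in single cells. On chromosome 7 it was 240 of 17141 (1.40%, 1.23 to 1.59) and from 0.762% to 1.86% in single cells. The ranges over cells overlap, and 8 different autosomes were highest in at least 1 of the 9 cells. Across the 19 autosomes the share went with the number of ends seen per ensemble end (rho = 0.414, r = 0.549, a description across chromosomes that share libraries). X, left out of this correlation, had 107.9 ends seen per 1000 ensemble ends. The autosomes ran from 233.9 on chromosome 7 to 267.4 on chromosome 2. The part of this difference in the share on X was not tested.

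**Figure D5:**
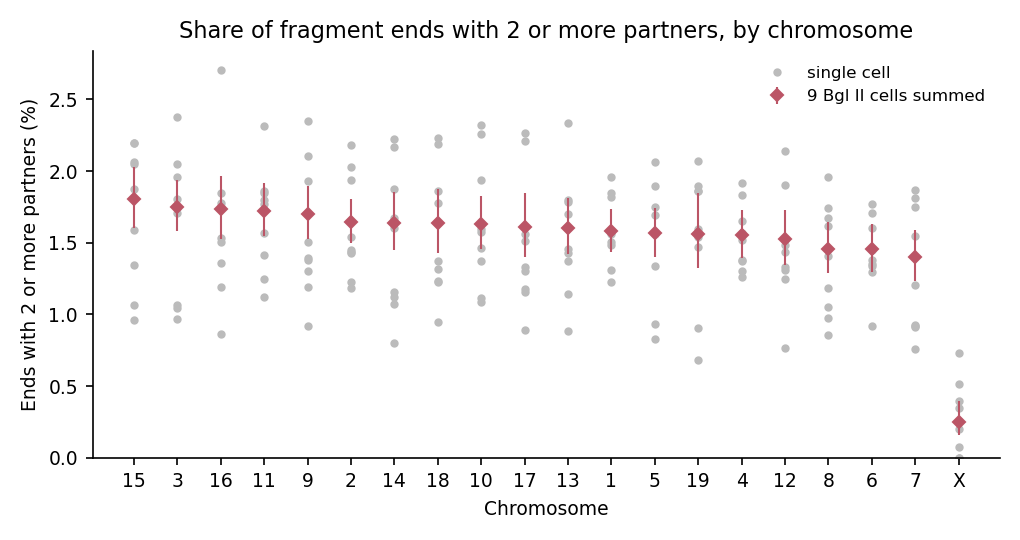
Share of ends with 2 or more partners (%, vertical axis) by chromosome (horizontal axis, in order of the summed share) for each Bgl II cell (grey points) and for the 9 cells summed (diamonds with 95% Wilson intervals). Autosomes run from 1.80% to 1.40% with overlapping cells, and X is at 0.252%. X is present in 1 copy in male cells and also had fewer ends seen per ensemble end.

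On the X chromosome 19 of 7535 ends (0.252%, 0.161 to 0.394) had 2 partners, against 1.61% of autosomal ends summed over the same cells. Both partners were in cis at 11 of them, 1 in cis and 1 in trans at 5 and both in trans at 3. The partners lay within 1 Mb of each other at 5 of the 19 ends, and 14.6% of autosomal pairs were that close. In cell 1 the X end at 39072755 was joined to 2 positions 29.9 and 30.2 Mb away that lie 253 kb apart. In cell 7 the end at 113683404 had partners 0.00399 and 0.0144 Mb away, 18.4 kb apart, the closest of all. In cell 10 the ends at 48839008 and 19174824 had partners 40.9 and 346 kb apart, and in cell 5 the end at 131526640 had partners 639 kb apart. At the other 6 ends with both partners in cis the partners lay 11284.3 kb or more apart, and at 5 of those the nearer partner was at most 0.216 Mb from the end. The 5 mixed ends had cis partners from 0.000363 to 111 Mb away.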

How the data were processed

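The deposited values are pairs of fragment end coordinates on mm9, 1 line per distinct contact with no read number, per the file headers and the submitters' processing notes; for the aligner and read filters, the sources used here name none. The files held 11156 to 30665 contacts per cell and 51834382 in the ensemble. Partners were counted per chromosome and coordinate, and 3 mitochondrial contacts of cell 8 were left out. Single-cell coordinates lay 3 bp below the ensemble's, where 96.8% of 291248 Bgl II ends matched exactly after the shift. Compartment classes came from the balanced ensemble map. Exchanges of partners were enumerated in full. Each comparison is a difference per cell, tested over the 9 Bgl II cells by an exact sign-flip permutation test (512 flips, two-sided, smallest p 0.00391) with Benjamini-Hochberg adjustment over 8 tests and a threshold of 0.05; cell 8 is given apart. Scripts used Python 3.11.15, numpy 2.4.6, scipy 1.17.1 and pandas 2.3.3. On simulated data the comparison of close partners with exchange was checked, and the other measures were not. Ends were named by rule: most partners per cell, several partners in most cells, closest trans and far cis pairs, extreme autosomes, and X ends. Members, lists and tests were chosen with earlier results of these data known.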

Additional observations from a re-analysis of the deposited data

Results flagged for a closer look

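Of 26 sets of 9 values examined, 1 held a cell far from the others. Among ends with 1 partner, 45.9% lay in compartment class 1 in cell 10, and the nearest other cell was cell 5 at 43.1%. Chance sets apart about 1 in 20 such sets.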

How the results depend on the processing

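Of 135 alternatives over the results, 113 kept direction and side of the threshold, 13 lost the call, 8 turned the direction and 1 moved the value. The p-value of an alternative was adjusted together with the main p-values of the other results, which were not tested again under that setting. Counting the 2 sides of a cut site as 1 end raised the share of ends with several partners to 3.10%, lowered the trans difference to 0.101 points, raised that of close partners to 6.45 points, turned the mixed pairs to -1.67 points and the shared end against neighbouring ends to 1.31 points, and gave 0.0203 (log2) for ensemble partners; the cause was not tested beyond the added opposite-side pairs. The difference in cis partners over 1 Mb turned to 0.0149 points with all 10 cells, 0.166 with joined sides and 1.44 without ends whose partners lie within 20 kb. Ensemble partners no longer passed with exactly 2 partners (0.0503), without near partners (0.0518) or without recurring ends (0.0483). Partners close together still passed within 100 kb (0.599 points) and 500 kb (0.939), and no longer passed within 2 Mb (1.07 points) or 5 Mb (0.811). Leaving out each cell in turn gave -0.512 to 0.224 points for cis partners over 1 Mb, 0.784 to 1.78 for trans partners, 0.0416 to 0.0603 for ensemble partners (7 of 9 lost the call), 0.754 to 1.18 for close partners, -4.93 to -3.88 against neighbouring ends and 6.77 to 8.04 for partner class. Ensemble partners were not run with all 10 cells, because cell 8 was cut with Dpn II. The 9 Bgl II cells gave 87 to 498 long-range pairs each and cell 8 gave 29, which limits single-cell values. Each test already compares values within a cell. Pairing between samples was not possible, because the numbers only name cells. The single Dpn II cell shares no number with the Bgl II cells, so no replicate block could be fitted.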

Other observations

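Of 2155 bins of 1 Mb with 100 or more ends over the 9 Bgl II cells, 213 held no end with several partners, and the median share was 1.55%. Chromosome 12 from 84000001 to 85000000 (mm9) ranked first, with 7 of 105 ends (6.67%) in 5 cells. The next was on chromosome 2 from 66000001 to 67000000, with 7 of 121 (5.79%) in 4 cells. These bins were ranked by the value given, so their rank is a description.

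Fragments with an end of several partners had median lengths from 2277.5 bp in cell 6 to 2635 bp in cell 1, and fragments of ends with 1 partner had medians from 2315 bp in cell 9 to 2548 bp in cell 1.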
